A study of Mus musculus with 8 samples.

Results

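The genes of the cytosolic ribosomal proteins were examined in single hypothalamic neurons classed by their response to glucose. Members were the rows of the expression tables whose gene name begins with Rpl or Rps followed by a digit, together with Rplp0, Rplp1, Rplp2 and Rpsa. Names that contain -ps (pseudogenes) and names that begin with Rps6k (kinases of the ribosomal protein S6) were left out. The rule found 84 genes among 16599 gene names, 50 of the large and 34 of the small subunit by name. The 84 names held 77 standard ribosomal protein genes and 7 others. Of these 7, Rpl3l, Rpl7l1, Rpl22l1, Rpl36al and Rps27l are paralogues of standard genes, Rps4y2 is annotated in GENCODE as a transcribed processed pseudogene (under the symbol Rps4l), and Rps19bp1 encodes a protein that binds a ribosomal protein and is not one itself.

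The neurons came from female ERα-ZsGreen mice, whose ERα promoter drives the green fluorescent reporter ZsGreen, and lay in the ventrolateral part of the ventromedial hypothalamus (vlVMH). Each was recorded in a slice while extracellular glucose went from 5 mM to 1 mM and back. GE (glucose-excited) neurons were hyperpolarized and fired less at 1 mM, GI (glucose-inhibited) neurons were depolarized and fired more, and all 8 neurons carried the reporter and went through the same glucose steps. GE neurons 1, 4, 6 and 8 and GI neurons 2, 5 and 7 were used, and GI neuron 3, with 126914 reads, is given apart. The neurons came from 2 mice and the sources used here do not assign them, so each class counts as 1 sample: values and ratios are given, with no p-value and no standard error. SDs of FPKM below describe the spread between neurons of a class, and SDs of log2 levels the spread over the neurons of both classes.

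Ribosomal proteins build the small subunit, which decodes the mRNA, and the large subunit, which joins the amino acids. Their mRNAs are short and abundant in most cells. Most begin with a stretch of pyrimidines (C and T in the gene) at the transcription start, the 5′ terminal oligopyrimidine (TOP) motif, through which mTOR signalling sets how strongly they are translated. Because many processed pseudogenes in mammalian genomes are copies of ribosomal protein mRNAs, reads of a member and of its copies can be hard to tell apart.

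Start sites of named members are shown because the pyrimidine stretch is more frequent in the family than among all genes. Each line holds 15 bases before and 15 bases from the start annotated in RefSeq on GRCm38.p6, 5′ to 3′ on the gene's strand. Where a gene has several annotated starts, the one with the longest run is shown. Capitals mark the longest run that begins with C and goes on with C or T, where it has at least 5 letters. Rpl41 and Rpl10, without such a run, stand for the members that lack it.
Rpl35 (chr2:39005117-39005146, minus strand): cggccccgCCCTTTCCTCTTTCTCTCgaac
Rplp2 (chr7:141447636-141447665, plus strand): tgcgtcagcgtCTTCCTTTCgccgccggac
Rps6 (chr4:86857353-86857382, minus strand): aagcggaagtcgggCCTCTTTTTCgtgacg
Rpl38 (chr11:114668565-114668594, plus strand): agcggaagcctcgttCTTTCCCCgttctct
Rpl35a (chr16:33056467-33056496, plus strand): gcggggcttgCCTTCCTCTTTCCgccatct
Rpl41 (chr10:128549154-128549183, minus strand): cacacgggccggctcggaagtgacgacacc
Rpl10 (chrX:74270801-74270830, plus strand): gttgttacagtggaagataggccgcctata

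RefSeq start windows were found for 63 members. A run of at least 8 such letters lay within 15 bases of an annotated start in 26 of the 63 (41.3%), against 10.8% of all 27025 genes in the same table. The motif ACTTCCG, searched on both strands over the 300 bases around the start, was present in 36.5% of the members and 7.20% of all genes. TATAAA was found in 11.1% of the members and 15.7% of all genes, and CCAAT in 31.7% and 41.1%. A match is only a stretch of letters, and a missing match says only that these letters are not in the window. The median level was 666 FPKM (the deposited unit, a fragment count normalised to transcript length and library size) over 24 members with the pyrimidine run of at least 8 letters and 697 FPKM over 34 members without that run, counting members that passed the filter and had a table locus of their own. The median log2 ratio between the classes, GE over GI, was -0.03 in each set.

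The libraries of the 7 neurons held 6.14 to 14.9 M reads (megareads), of which 74.7% to 77.3% mapped in 6 of them and 48.2% in GE neuron 1. Between 12547 and 14111 gene names were listed per neuron, against 6278 in GI neuron 3. Of 10 pan-neuronal marker names 9 were listed in all 7 neurons, with summed levels of 1937 to 2590 FPKM, and none of the 8 names of the vlVMH list was at 0 throughout (6 were listed in all 7 neurons, summed 383 to 694 FPKM). RNA of other cells was present. Summed levels in GE and GI neurons were 1033 to 2621 and 1160 to 1875 FPKM for 7 astrocyte markers, 849 to 1972 and 1254 to 1518 FPKM for 7 microglia markers, and 462 to 1127 and 315 to 622 FPKM for 7 oligodendrocyte markers, and the summed endothelial markers were at or below 3.43 FPKM. The 8 markers of the neighbouring arcuate nucleus summed to 10153 to 13323 FPKM in GE and 10406 to 15602 FPKM in GI neurons. The 3 globin names found summed to 946 to 2240 FPKM in GE neurons and 2904 to 5048 FPKM in GI neurons, without overlap. The part of these cells' RNA in the member levels was not tested.

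Ribosomal protein mRNAs were among the most abundant of these neurons. Of the 84 members, 83 were listed in all 7 neurons, as were all 77 standard names, and the exception was Rpl3l, a paralogue of Rpl3 known from striated muscle, listed only in GE neuron 6 at 0.905 FPKM. Any value above 0 counts as listed, so that Rpl26 is included at 0.00869 and 0.00779 FPKM in GE neurons 6 and 8. In each of these neurons 82 members were at 1 FPKM or more. Over the 7 neurons the median member stood at 626 FPKM, 26 members had a mean of at least 1000 FPKM and 6 a mean below 100 FPKM. By mean level 10 members were among the 100 highest genes and 65 among the 500 highest. Their counting precision was high: the intervals deposited with the values imply a median of 398 to 1590 fragments per member in each neuron (counting error only).

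**Figure D1:**
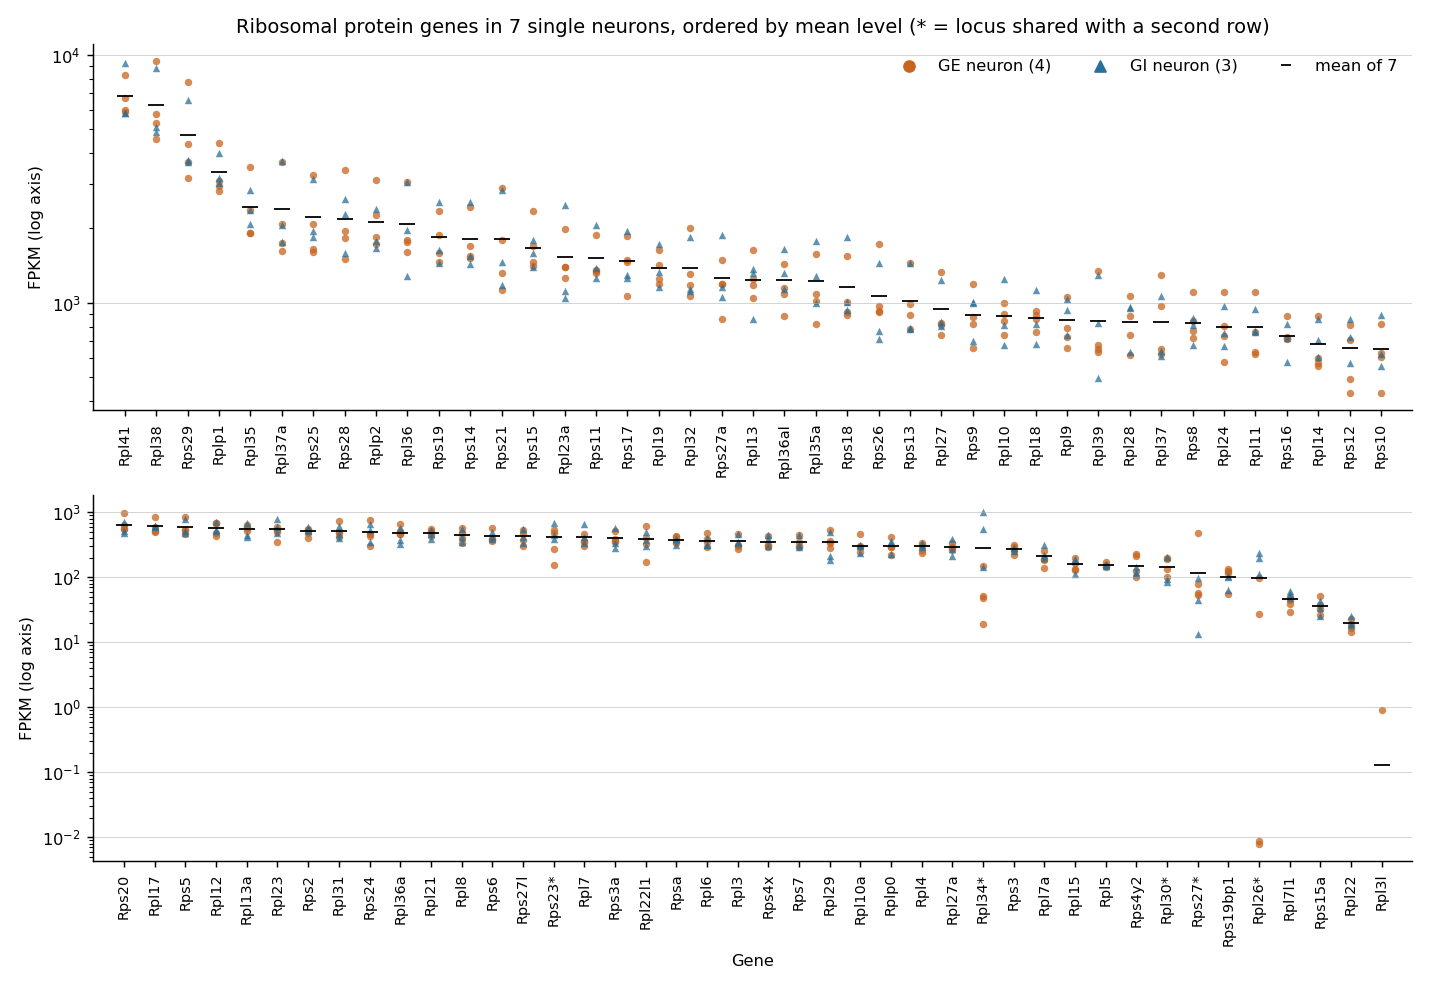
FPKM (log axis) of each of 83 of the genes in the 4 GE neurons (circles) and 3 GI neurons (triangles), with the mean of the 7 as a bar; genes are ordered by mean over 2 panels with different axis ranges, and values of 0 are not drawn. For most genes the 7 neurons lie close together, and the wide columns are mainly the starred genes Rpl34, Rps27 and Rpl26, whose table locus is shared with a second row.

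The highest member was Rpl41, which encodes a very short basic peptide of the large subunit. It measured 8295, 5973, 6706 and 5895 FPKM in GE neurons 1, 4, 6 and 8 and 9276, 5819 and 5829 FPKM in GI neurons 2, 5 and 7. The classes overlapped, with GE neuron 1 and GI neuron 2 above the others. Rpl38, a large subunit protein known in mouse for its part in translating Hox mRNAs, measured 9455, 5754, 5292 and 4573 FPKM in the GE neurons and 8851, 5125 and 4853 FPKM in the GI neurons, and the same neurons stood out. Rps29, of the small subunit, had 7772, 4380, 3692 and 3184 FPKM against 6563, 3698 and 3750 FPKM. The next 5 by mean were Rplp1 (3359 FPKM), Rpl35 (2430 FPKM), Rpl37a (2377 FPKM), Rps25 (2221 FPKM) and Rps28 (2165 FPKM). The 8 highest members together held 36.4% of the summed level of all 84.

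At the low end stood members of several kinds. Rpl22, an RNA-binding protein of the large subunit, measured 14.7, 16.7, 23.3 and 19.4 FPKM in the GE neurons and 18.4, 19.9 and 25.2 FPKM in the GI neurons. Its paralogue Rpl22l1 was listed far above it in every neuron, at 629, 328, 398 and 173 FPKM in the GE and 492, 306 and 376 FPKM in the GI neurons. Rps15a, a small subunit protein, had a mean of 35.9 FPKM (25.8 to 51.7) and Rpl7l1 a mean of 46.7 FPKM (29.0 to 60.8), while Rpl7, of which Rpl7l1 is the paralogue, had a mean of 414 FPKM. Rps19bp1, which is no ribosomal protein, had a mean of 100.5 FPKM. Rpl26 and Rps27 were also among the 8 lowest names, and both share their locus with another row (mean 96.7 FPKM for Rpl26 and 117.6 FPKM for Rps27).

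Other paralogue pairs were ordered in different ways. Rpl36al (mean 1233 FPKM, 882 to 1647) lay above Rpl36a (mean 489 FPKM, 328 to 676), and the neurons of the pair did not overlap. Rps4x had a mean of 355 FPKM against 149 FPKM for the pseudogene Rps4y2. Rpl3 had a mean of 358 FPKM, with Rpl3l near 0. Such pairs are similar in sequence, and the way in which reads were shared between them is not given in the sources used here, so each order is that of the deposited values.

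Level and coding length were related across members. Over the 77 members with an own locus and a GENCODE coding length, Spearman's rho between coding length and mean FPKM was -0.59, and over 3750 other genes of the same length range it was -0.40. These are correlations across genes, which are not independent replicates, and FPKM already divides by transcript length. The 6 members with at most 250 coding bases had a median of 3443 FPKM, and the 24 members above 600 coding bases a median of 369 FPKM. Between these the median did not fall with length. It was 835 FPKM for 19 members of over 250 to 400 bases and 859 FPKM for 28 members of over 400 to 600. Rpl41 has 75 coding bases and Rpl38 210, whereas Rpl3 has 1209 and Rplp0 951.

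As a share of the FPKM sum the ribosomal protein genes took 8.58%, 7.17%, 6.39% and 6.27% in GE neurons 1, 4, 6 and 8 and 7.50%, 6.44% and 6.96% in GI neurons 2, 5 and 7. The class means were 7.10% and 6.97%, and all 3 GI neurons lay within the range of the GE neurons. Large subunit genes summed to 1.44 to 1.59 times the small subunit genes in the 7 neurons. GE neurons 6 and 8 held the lowest shares and GE neuron 1 the highest. Mitochondrial genes took 17.5% to 25.8% of the sums, and without them the shares of the members were 11.4%, 9.07%, 8.25% and 7.6% in the GE and 9.98%, 8.68% and 8.44% in the GI neurons. The highest and lowest neurons were the same by both measures.

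**Figure D2:**
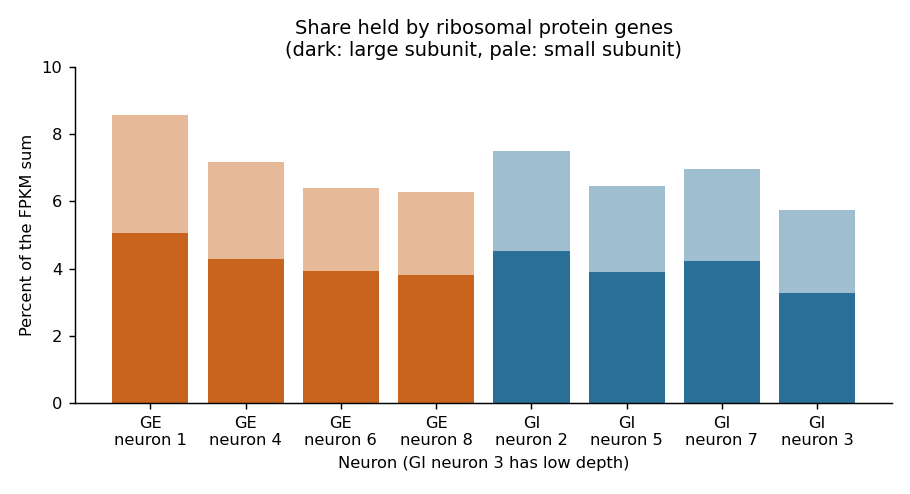
Percent of each neuron's FPKM sum held by the 84 ribosomal protein genes, large subunit dark and small subunit pale, for 4 GE neurons (orange) and 4 GI neurons (blue), GI neuron 3 at low depth on the right. Bars of the 7 main neurons run from 6.27% to 8.58%, and the GI neurons fall within the range of the GE neurons.

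The study sequenced both kinds of glucose-sensing neuron to compare their transcripts, and the mRNAs of the ribosomal proteins stood at nearly equal levels in them. The log2 ratio (GE over GI) was taken from class means with 1 FPKM added, for genes with a class mean of at least 5 FPKM, which kept 82 of the 84 members (Rpl3l was one of the 2 that fell below) and 6990 genes in all. The median ratio was -0.03 over the 82 members and 0.02 over all 6990 genes. The median of the members moved to -0.19 without GE neuron 1 and to 0.17 without GI neuron 2 (all genes 0.02 and 0.03). Of the 82, 79 lay within 0.5 of 0 (96.3%), against 74.8% of all genes and 92.1% of 457 other genes with a mean of at least 300 FPKM. With the 5 members of a shared locus set aside, all 77 others lay within 0.5 and 85.7% lay within 0.25, against 46.6% of all genes and 78.6% of the 457 other genes of at least 300 FPKM.

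The number past 1.5-fold was 1 of 82 in the direction of GE neurons (Rps27), where 10.9% of all genes were past it, and 2 of 82 in the direction of GI neurons (Rpl34 and Rpl26), where 9.04% of all genes were. All 3 share their locus with another row, and among the 77 members with an own locus none was past 1.5-fold. No member had every GE neuron above every GI neuron (2.68% of all genes did), and 1 member, Rpl26, had every GI neuron above every GE neuron (2.02% of all genes did). Single libraries moved these counts, with the share of all genes moving too. Without GI neuron 2, 3 members with an own locus passed 1.5-fold in the direction of GE neurons (Rpl29, Rpl36a and Rps26), where 12.6% of all genes did, and 8 did not overlap in that direction, where 6.28% of all genes did not. Without GE neuron 1, no member was past 1.5-fold in the direction of GE neurons, where 13.9% of all genes were, and 5 did not overlap in the direction of GI neurons, where 3.72% of all genes did not. Without GE neuron 4, Rps4y2 was also past 1.5-fold in the direction of GE neurons (12.5% of all genes), and 2 members did not overlap in the direction of GI neurons (3.56% of all genes). Without GE neuron 6, Rps19bp1 did not overlap in the direction of GE neurons (5.36% of all genes). Leaving out GI neuron 5 gave 1 member in the direction of GE neurons (5.09% of all genes) and 2 in that of GI neurons (6.58%) that did not overlap. Leaving out GI neuron 7 gave the same counts of members (8.65% and 5.22% of all genes), and 2 members past 1.5-fold in the direction of GE neurons, where 17.4% of all genes were.

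**Figure D3:**
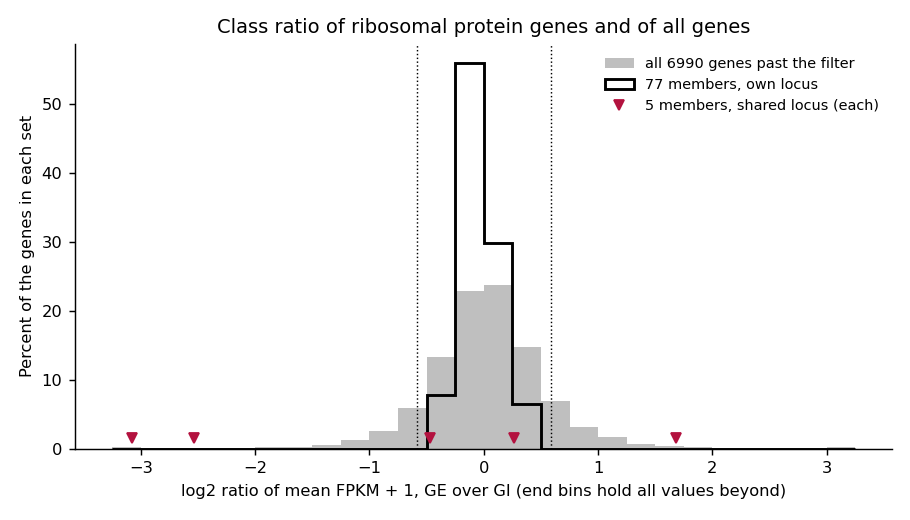
Distribution of the log2 ratio GE over GI of class mean FPKM + 1 in percent of genes, for all 6990 genes past the filter (grey) and the 77 members with an own locus (line), with the 5 members of a shared locus as triangles at their own ratio (their height has no meaning). Dotted lines mark 1.5-fold: the line histogram stays between them, and 3 of the 5 triangles lie outside.

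Which class had the higher mean was less settled. The mean was higher in GE neurons for 30 of 82 members (36.6%), against 52.3% of all genes. The number was 13 without GE neuron 1, 47 without GE neuron 4, 47 without GE neuron 6, 54 without GE neuron 8, 64 without GI neuron 2, 21 without GI neuron 5 and 25 without GI neuron 7, while the share of all genes ran from 46.4% to 56.4% over these settings. With levels scaled by the FPKM sum without mitochondrial genes it was 47, and with levels scaled by the sum without the 100 highest genes 52, and with median-of-ratios scaling 22, while these scalings moved the median ratio of all genes by at most 0.04. The direction of these small ratios therefore turned with the library left out or the scaling used.

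By role, the ratios were small in every group. In the large subunit 15 of 48 members past the filter were higher in GE neurons (median log2 ratio -0.03), and in the small subunit 15 of 34 (median -0.01). The stalk, which recruits translation factors to the large subunit, gave log2 ratios of -0.03 for Rplp0, -0.04 for Rplp1 and 0.20 for Rplp2. Rplp0 measured 293, 219, 296 and 415 FPKM in the GE and 364, 232 and 339 FPKM in the GI neurons. Rps6, the substrate of the S6 kinases, measured 578, 360, 389 and 391 FPKM in the GE and 496, 390 and 412 FPKM in the GI neurons, a log2 ratio of -0.01. Rpsa, a small subunit protein also known as a laminin receptor, measured 367, 339, 427 and 423 FPKM against 311, 387 and 386 FPKM, a log2 ratio of 0.11. For Rps6 all GI neurons lay within the range of the GE neurons, and for Rpsa GI neuron 2 lay below it. Rps27a, made as a fusion of ubiquitin and a small subunit protein, had a log2 ratio of -0.21 from 1177 ± 255 FPKM (SD, n = 4) in GE and 1363 ± 450 FPKM (SD, n = 3) in GI neurons.

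Among members with an own locus, the largest ratios in the direction of GE neurons were those of the pseudogene Rps4y2, Rpl29 and Rpl36a. Rps4y2 measured 230, 100.3, 124 and 213 FPKM in the GE and 121, 112 and 143 FPKM in the GI neurons (log2 ratio 0.41), with GE neurons 1 and 8 above the rest. Rpl29, of the large subunit, measured 544, 285, 368 and 341 FPKM against 494, 188 and 217 FPKM (0.36), and GI neuron 2 lay among the GE neurons. Rpl36a, of the large subunit, measured 676, 473, 526 and 460 FPKM against 584, 328 and 378 FPKM (0.31), again with only GI neuron 2 in the range of the GE neurons. Rps19bp1 (0.26), Rps20 (0.26) and Rps26 (0.22) followed, of which Rps26 is a small subunit protein at the mRNA exit channel.

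In the direction of GI neurons the largest were Rpl7l1, Rpl7 and Rpl7a. Rpl7l1 measured 38.7, 49.2, 45 and 29.0 FPKM in the GE and 60.8, 55.7 and 48.5 FPKM in the GI neurons (log2 ratio -0.43), and only GE neuron 4 exceeded the lowest GI neuron. Rpl7 measured 471, 347, 358 and 301 FPKM against 667, 334 and 416 FPKM (-0.35), with wide overlap. Rpl7a measured 253, 189, 141 and 186 FPKM against 310, 220 and 200.1 FPKM (-0.34), with GE neuron 1 among the GI neurons. Rpl23 (-0.32) and Rpl35a (-0.26), both of the large subunit, followed. None of these ratios reached 1.5-fold.

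The members that did pass 1.5-fold belong to a set of 6 whose position in the tables is shared, over at least 50% of the length of each, with a second row. Of these, 5 are described here, Rpl26 with Gm15772, Rpl30 with Gm12191, Rpl34 with Rpl34-ps1, Rps23 with Gm15450 and Rps27 with Gm9846. The table rows of all 84 members lie on the chromosome that GENCODE gives for the gene, but those of only 2 overlap its GRCm38 position, so the tables use other coordinates and what their shared positions rest on was not tested. The second rows were not members by the rule and were named after their values had been seen. In GENCODE vM21 on GRCm38 Rpl34-ps1 and Gm15772 are processed pseudogenes on other chromosomes than their members. Each is as long as the member's coding sequence with its stop codon, begins with ATG, and aligned to the member's transcript without a gap at 99.4% (Rpl34-ps1) and 99.5% (Gm15772) identity. Gm15450 and Gm9846 had no transcript in the annotation used. The stretches below are shown because the pairs differ at so few bases.
Rpl34 (GRCm38, gene at chr3:130726831-130730398, minus strand), the stretch aligned to bases 87 to 176 of Rpl34-ps1: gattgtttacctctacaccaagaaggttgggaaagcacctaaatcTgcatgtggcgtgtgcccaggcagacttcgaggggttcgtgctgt
Rpl34-ps1 (chr6:71124610-71124963, plus strand), bases 87 to 176: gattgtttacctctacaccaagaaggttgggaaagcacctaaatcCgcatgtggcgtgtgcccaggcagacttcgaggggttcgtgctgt
Rpl26 (chr11:68901583-68906989, plus strand), the stretch aligned to bases 132 to 221 of Gm15772: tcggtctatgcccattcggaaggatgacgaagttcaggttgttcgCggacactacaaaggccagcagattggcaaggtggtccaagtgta
Gm15772 (chr5:3236431-3236868, plus strand), bases 132 to 221: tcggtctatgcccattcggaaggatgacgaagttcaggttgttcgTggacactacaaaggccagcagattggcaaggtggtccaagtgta
Bases are counted from 1 at the 5′ end of the pseudogene's transcript, the sequences are GENCODE transcripts 5′ to 3′, and the capital marks the base that differs. Over their whole lengths the pairs differed at 2 of 354 bases (Rpl34) and 2 of 438 (Rpl26).

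Rpl34, a large subunit protein, measured 151, 19.0, 51.2 and 47.7 FPKM in the GE and 1032, 143 and 552 FPKM in the GI neurons, a log2 ratio of -3.08 (-3.84 without GE neuron 1 and -2.35 without GI neuron 2). GE neuron 1 lay above GI neuron 5, and the other GE neurons lay below all GI neurons. The second row, Rpl34-ps1, went the other way, with 1567, 981, 1038 and 818 FPKM in the GE and 633, 763 and 401 FPKM in the GI neurons, every GE neuron above every GI neuron. The 2 rows together gave 1718, 999.9, 1089 and 865 FPKM against 1665, 906 and 953 FPKM, with a log2 ratio of -0.01. The member row took 1.90% to 8.79% of the sum in GE neurons and 15.7% to 62.0% in GI neurons.

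Rpl26, a large subunit protein, measured 96.7, 27.4, 0.00869 and 0.00779 FPKM in the GE and 114, 239 and 199.7 FPKM in the GI neurons, a log2 ratio of -2.53 (-4.19 without GE neuron 1). It was the only member whose classes did not overlap. The values of GE neurons 6 and 8 imply 1.62e-05 and 1.64e-05 fragments, far below 1 read, while the second row at the same position held 1990 and 1443 FPKM in them. The rows together gave 2521, 1633, 1990 and 1443 FPKM in the GE and 2775, 1836 and 1463 FPKM in the GI neurons, a log2 ratio of -0.09 with overlapping classes. The member row was 13.7% of the sum or less in every neuron.

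Rps27, a small subunit protein, measured 478, 57.4, 53.1 and 80.5 FPKM in the GE and 44.4, 96.4 and 13.6 FPKM in the GI neurons, a log2 ratio of 1.68 that fell to 0.30 without GE neuron 1. Together with Gm9846 it stood at 5836, 4203, 3777 and 2862 FPKM against 6665, 3353 and 3335 FPKM, a log2 ratio of -0.09. With the second row counted its mean was 4290 FPKM, above that of its paralogue Rps27l (429 FPKM), whereas the member row alone (117.6 FPKM) lay below it.

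At the other shared loci the ratios were smaller, and for Rps23 and Rpl30 the sum lay nearer to 0 than the member row. Rps23, a protein of the decoding centre, had a log2 ratio of -0.47 alone and 0.08 with Gm15450, and Rpl30 of 0.27 alone and 0.01 with Gm12191. Across these 5 loci the highest neuron exceeded the lowest by 2.48 to 54.4 times in the member rows other than that of Rpl26, and by 1.91 to 2.33 times in the sums. Among the 77 members with an own locus that ratio was 1.21 to 3.65, with a median of 1.85. With the sums in place of the member rows, 0 of 83 members were past 1.5-fold in either direction and 0 did not overlap. Which of the rows the RNA came from cannot be told from these values.

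**Figure D4:**
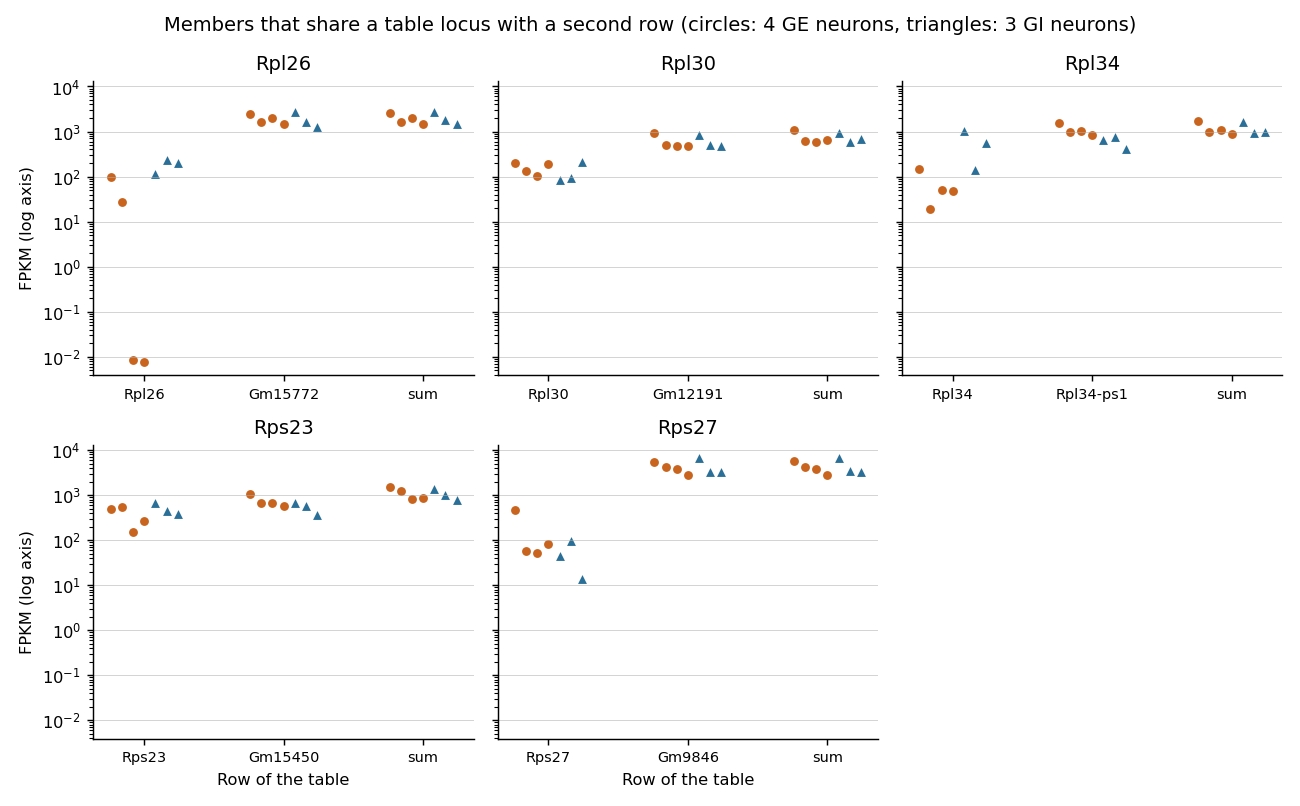
FPKM (log axis) of 5 members that share a table locus with a second row: the member row, the second row and the sum of both, with 4 GE neurons as circles and 3 GI neurons as triangles in the order GE 1, 4, 6, 8 and GI 2, 5, 7. The member rows scatter over up to several orders of magnitude, and the highest sum is 1.91 to 2.33 times the lowest.

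What varied most among the members with an own locus was a shift of nearly the whole family between libraries, in both classes. GE neuron 1 and GI neuron 2 were the 2 highest neurons for 63 of the 77, and the highest single neuron was GE neuron 1 for 43 members and GI neuron 2 for 27. The other 14 include Rpl5, which binds the 5S rRNA, with 148, 143, 173 and 154 FPKM in the GE and 153, 162 and 152 FPKM in the GI neurons, the narrowest range of all members past the filter (1.21 times). The median member lay 0.41 above its own log2 mean over the 7 neurons in GE neuron 1, 0.35 above it in GI neuron 2, and at -0.11 to -0.21 in the other 5. Without these 2 neurons the median SD of a member's log2 level dropped from 0.33 to 0.19, over members listed in every neuron, shared loci included. The 2 neurons were picked from these same values, so the drop follows from the choice. The median log2 ratio without them was 0.01. In the direction of GE neurons 8 members with an own locus did not overlap, where 10.3% of all genes did not. In the direction of GI neurons 3 did not (Rpl14, Rpl3 and Rpl7a), where 9.01% of all genes did not. Rpl5 and Rpl14 lie outside the rule for named genes and were named after their values had been seen.

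The shift was larger for members of short coding length, and short genes outside the family moved with it in part. In GE neuron 1 the median deviation was 0.61 for 25 members of up to 400 coding bases, 0.38 for 28 members of over 400 to 600 and 0.30 for 21 members of over 600 to 1000. Other genes there were at 0.21, 0.09 and -0.01. In GI neuron 2 the members were at 0.44, 0.41 and 0.27 and the other genes at 0.29, 0.18 and 0.12. GE neuron 1 had the most reads and the lowest share mapped (48.2%), and GI neuron 2 had 7.41 M reads and the next lowest share mapped (74.7%, the others 75.4% to 77.3%). The summed astrocyte markers were lowest in these 2 neurons (1033 and 1160 FPKM, the others 1751 FPKM or more), the oligodendrocyte markers too (462 and 315 FPKM, the others 503 FPKM or more), and the microglia markers were at 849 FPKM in GE neuron 1 and 1254 FPKM in GI neuron 2 (the others 1217 FPKM or more). Their FPKM sums over all genes were also the highest, 1.33e+06 and 1.48e+06 against 1.05e+06 to 1.12e+06 in the other 5, and as a share of that sum the members stood at 8.58% in GE neuron 1 but at 7.50% in GI neuron 2, close to GE neuron 4 (7.17%). The part of these measures in the shift was not tested. Small RNA genes that lie within members (snoRNA and miRNA genes in 10 loci) were listed in GE neuron 1 for 5 and in GI neuron 2 for 5 of the 10, and for at most 2 in any other of the 7 neurons.

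**Figure D5:**
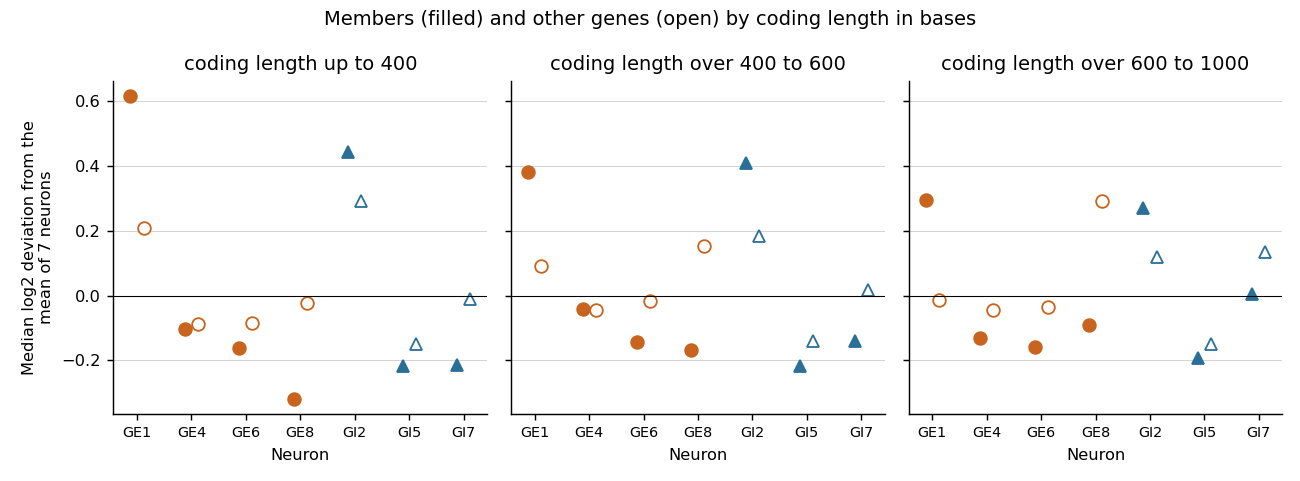
Median log2 deviation of a gene from its mean over 7 neurons, for members with an own locus (filled) and other genes (open) in 3 classes of coding length, by neuron (GE circles, GI triangles). GE neuron 1 and GI neuron 2 have the highest filled symbols in each panel, falling from 0.61 to 0.30 and from 0.44 to 0.27 with coding length.

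In spite of the shift, the order of the members was nearly the same in each of the 7 neurons. Spearman's rho between neurons over the 78 members with an own locus was 0.968 to 0.982 within GE neurons, 0.967 to 0.976 within GI neurons and 0.962 to 0.985 between the classes, against 0.794 to 0.851 between the classes over all genes past the filter. With GI neuron 3, rho over these members was 0.867 to 0.884. These values describe likeness across genes of unequal level. The median level was 670 FPKM for these members and 14.9 FPKM for all genes past the filter. No rho over other genes of high level is given here. The median SD of the log2 level over the 7 neurons was 0.32 for the members with an own locus, 0.52 for all genes and 0.32 for 457 other genes of at least 300 FPKM, so that the members varied about as much as other genes of high level.

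In GI neuron 3, with its 126914 reads, 83 members were listed, 78 of them at 1 FPKM or more. Of the 6160 genes listed in all 7 other neurons at a mean of at least 5 FPKM, 66.6% were listed there. Those genes were not matched to the members in level, and the median member stood at 626 FPKM over the 7 neurons. No share is given here for other genes of high level. The values imply a median of 9.0 fragments per member, so single values there are imprecise. The share of the FPKM sum was 5.74%, below the 7 other neurons. Of the members listed, 5 lay below 1 FPKM, among them Rpl26, Rpl30, Rpl34 and Rps23, and all 5 are members of a shared locus. The values of these 4 imply 1.54e-05, 1.81e-07, 1.90e-07 and 6.46e-08 fragments, far below 1 read. Adding this neuron to the GI class gave a median log2 ratio of 0.00184.

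Genes that work with the ribosome gave list medians between -0.23 and -0.03, with 3 genes past 1.5-fold. Of all genes 10.9% were past it in the direction of GE neurons and 9.04% in that of GI neurons. Fau, which encodes a ribosomal protein fused to a ubiquitin-like protein, and Gnb2l1, a scaffold protein on the small subunit (RACK1), lie outside the naming rule. Fau measured 1744, 1286, 1220.0 and 1374 FPKM in the GE and 1853, 1194 and 1153 FPKM in the GI neurons (log2 ratio 0.01), with the classes overlapping, and Gnb2l1 had a log2 ratio of 0.10. Of 23 other TOP mRNAs past the filter, both included, 9 were higher in GE neurons (median -0.04). In that list Eef1a1, the elongation factor that brings aminoacyl-tRNA, measured 762, 625, 741 and 768 FPKM in the GE and 993, 860 and 828 FPKM in the GI neurons (log2 ratio -0.30). It was one of 2 genes of the list with every GI neuron above every GE neuron, and Vim, an intermediate filament gene, was the other (2 of 23, beside 2.02% of all genes). Vim measured 8.49, 14.6, 8.43 and 13.2 FPKM in the GE and 29.0, 15.6 and 15.6 FPKM in the GI neurons (log2 ratio -0.79). Eef1a1 falls outside the rule for named genes, as does Ncl below, and both were chosen after their values were seen.

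Of 21 ribosome assembly genes past the filter 10 were higher in GE neurons (median -0.03), of 7 genes of RNA polymerase I transcription 3 (median -0.16), and of 8 genes that control TOP translation, such as Larp1 and Rheb, 3 (median -0.23). The largest ratios over these lists were 0.68 for Pes1, a ribosome assembly factor, 0.57 for Eif3l, a subunit of an initiation factor, and 0.55 for Tsc2, an inhibitor of mTOR signalling, in the direction of GE neurons. In the direction of GI neurons they were -0.79 for Vim, -0.62 for Tial1, an RNA-binding protein, and -0.58 for Nop14, a ribosome assembly factor. Pes1, Tsc2, Tial1 and Nop14 all had class means below 9 FPKM, and their neurons overlapped between the classes. Of the 21 ribosome assembly genes only Ncl (nucleolin) had every GE neuron above every GI neuron, as 2.68% of all genes did. It measured 39.3, 30.0, 28.9 and 30.3 FPKM against 23.98, 21.0 and 27.4 FPKM (log2 ratio 0.40). Past 1.5-fold over these lists were Pes1 in the direction of GE neurons and Vim and Tial1 in that of GI neurons. Of all genes 10.9% and 9.04% were past it in these directions.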

How the data were processed

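RNA of 8 single neurons was amplified (SMART-Seq v4), tagmented (Nextera) and sequenced. The authors deposited FPKM values with a lower and an upper bound for the genes above 0 in each neuron. How the FPKM were computed, and on which build and annotation, is not given in the sources used here. Submitters' processing notes name a mouse and a human build with no role, some labels mention human material, and the table positions are not those of GRCm38; names, not positions, tied rows to genes. A deposited quality table holds read totals and mapped and coding fractions computed by the authors. The FPKM were taken as deposited, a gene not listed was set to 0, and 110 names listed at more than 1 locus and 24 that a spreadsheet had converted to dates were dropped. Fragment numbers were implied from the upper bound, read as 2 SDs above the value.

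Class means were compared as log2 ratios with a pseudocount of 1 FPKM, for genes with a class mean of at least 5 FPKM. A gene was called past 1.5-fold or where the neurons of the classes did not overlap. The neurons came from 2 mice and are not assigned to them, so the classes were compared with no test and precision is given as the spread between neurons. Dixon's criterion was used only to point out single neurons. GI neuron 3 was left out of the class means for its low depth. Shared loci were rows overlapping over at least 50% of both spans, and the sums over them, like the comparison without GE neuron 1 and GI neuron 2, were added after the data had been seen. Alternatives were other pseudocounts, filters, scalings, class medians, same-name rows summed, GI neuron 3 added and each neuron left out.

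The members and gene lists were chosen with earlier results of these data known. Named members were the 8 highest and 8 lowest by mean, the 8 largest ratios in each direction, those not overlapping between classes, the stalk genes, Rpsa, Rps6, Rps27a, Rpl41 and the paralogues with their partners. From the gene lists the 3 largest ratios in each direction and Fau and Gnb2l1 were named, and marker lists were given as sums. Some items of these lists are not reported here. Positions and sequences came from GENCODE vM21 and RefSeq (GRCm38). Computations used Python 3.11.15, numpy 2.4.6, pandas 2.3.3 and scipy 1.17.1, and the scripts were tested on simulated data.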

Additional observations from a re-analysis of the deposited data

Results flagged for a closer look

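In 7 of 41 sets of values examined over the 4 GE neurons, 1 neuron lay so far from the other 3 that its gap, divided by the whole range, passed Dixon's 95% critical value. Chance alone passes it in about 1 of 20 sets chosen without regard to their values. These sets are not independent, since they come from the same 4 libraries. Many also hold members named for their levels or ratios in these same values, so the 7 cannot be set against that rate. In 6 of the 7 the neuron was GE neuron 1, the library with the highest share of ribosomal protein mRNA and 48.2% of its reads mapped. It measured 1341 FPKM for Rpl39, a short large subunit protein (the other GE neurons 631 to 678 FPKM), 4417 FPKM for Rplp1 (2817 to 3084 FPKM) and 1729 FPKM for Rps26 (913 to 971 FPKM). It also measured 478 FPKM for Rps27 (53.1 to 80.5 FPKM), 430 FPKM for Rps4x (296 to 314 FPKM) and 578 FPKM for Rps6 (360 to 391 FPKM). The seventh passed by construction, since any value above 0 does beside 3 at 0. It was the muscle paralogue Rpl3l, listed at 0.905 FPKM in GE neuron 6, an implied 0.392 fragments, and not listed in the other GE neurons.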

How the results depend on the processing

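Leaving out each neuron in turn gave 13 to 64 members with the higher mean in GE neurons (30 with all 7). It left 0 to 4 members past 1.5-fold in the direction of GE neurons (1), where 9.39% to 17.4% of all genes were. In the direction of GI neurons it left 2 to 3 (2), where 9.001% to 12.7% of all genes were. It gave 0 to 8 members with GE neurons wholly above GI neurons (0) and 1 to 5 with the reverse (1), where 3.82% to 8.65% and 3.09% to 6.58% of all genes did so, a median log2 ratio of -0.19 to 0.17 (-0.03), and a difference in share of the FPKM sum of -0.357 to 0.412 percentage points (0.135). The median ratio ran from -0.0498 to 0.10 for the ribosome assembly genes and from -0.39 to 0.046 for the genes that control TOP translation. Scaling without mitochondrial genes gave 47 members higher in GE neurons, 1 with GE wholly above GI and 2 with GI wholly above GE, and scaling without the 100 highest genes gave 52 and, with GI wholly above GE, 2. Adding GI neuron 3 gave 2 past 1.5-fold in the direction of GE neurons and 0 with GI wholly above GE. Class medians gave 3 past 1.5-fold in the direction of GE neurons. The shares of all genes past 1.5-fold or not overlapping are not given here for these scalings, the added neuron or the class medians. With shared-locus rows summed, 0 members were past 1.5-fold in either direction, 0 had GI wholly above GE, and the ratio of Rps27 turned from 1.68 to -0.094. Without GE neuron 1 and GI neuron 2 together, 8 and 5 members did not overlap in the direction of GE and GI neurons (10.3% and 9.01% of all genes). The median SD of log2 levels was then 0.19 (0.33), a drop that follows from picking these neurons for their high member levels. The cause of these shifts was not tested. Other pseudocounts, filters and summed same-name rows moved no count by over 1.5 times. No paired analysis was possible because the sources used here do not assign the neurons to the 2 mice. With 3 and 4 neurons of unassigned mice, differences of the size seen between libraries could not be told from differences between classes.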
